A study of Rattus norvegicus with 6 samples.

Results

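The mitochondrial ribosomal proteins are the nuclear-encoded proteins of the ribosome that works inside mitochondria. They were taken from a table of gene expression in rat retina as the protein-coding genes whose symbol starts with Mrpl (large subunit) or Mrps (small subunit) followed by a digit. This gave 76 of 34170 genes, 46 Mrpl and 30 Mrps, and the table's own description called 76 of the 76 a mitochondrial ribosomal protein. Retinas came from male Sprague-Dawley rats, an outbred stock, of 100.4 to 110.5 g labelled weight. The 3 diabetic rats had been injected intraperitoneally with streptozotocin (STZ), a toxin of the insulin-producing beta cells, given as 60 mg/kg after a 12 h fast, over 5 days. The 3 control rats had been given citrate buffer, the vehicle, on 5 days. Rats counted as diabetic when fasting blood glucose passed 16.7 mmol/L 1 week after the last injection, so the effects of the toxin and of glucose cannot be told apart. The labels give neither the rats' age nor when retinas were taken.

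Mitochondria keep a small genome that encodes subunits of the respiratory chain and of ATP synthase, and the mitochondrial ribosome translates only those messages. Its RNAs come from the mitochondrial genome, whereas all of its proteins are made in the cytosol from nuclear genes and imported. Some of these proteins have relatives in bacterial ribosomes and others exist only in mitochondria. The retina uses much oxygen, and photoreceptors pack mitochondria densely into their inner segments.

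Values are FPKM, which are fragments per length of gene and per depth of library, so levels can be compared between genes. Poly-A RNA was sequenced to between 12417686 and 19115426 fragments per library, as rebuilt from the table. A count of 3 fragments in a 1 kb gene equals 0.158 to 0.248 FPKM, and 71 of the 76 members had at least 100 fragments in each library. Genes were tested where they averaged at least 0.5 FPKM over the 6 libraries, which 74 members (45 Mrpl, 29 Mrps) and 16363 genes in all did. Differences are diabetic minus control as log2(FPKM + 0.5), a scale that shrinks the difference of low genes, and tests are limma's with Benjamini-Hochberg adjustment over all genes tested. As the tissue is bulk retina, fewer cells of a type and less RNA per cell cannot be told apart.

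On the deposited FPKM scale the diabetic retinas had lower levels of nearly all mitochondrial ribosomal protein messages, mostly by a modest amount, but no single message passed the test. The median member difference was -0.30, that is 81.2% of the control level, with quartiles of -0.37 and -0.16 and a range from -0.89 (Mrpl53) to 0.41 (Mrps27), while the median over all genes tested was 0.00. The difference was below 0 for 71 of the 74 members and above 0 for Mrps27, Mrpl1 and Mrps10. By limma with Benjamini-Hochberg adjustment 0 of 74 members passed 0.05, against a background of 0.00% of all genes called, and the smallest adjusted p of a member was 0.127. At an unadjusted p below 0.05, limma gave 39 members lower and 1 higher, against a background of 10.7% of all genes lower and 9.15% higher. All 3 diabetic libraries lay below all 3 control libraries for 40 members and above them for 1, against 13.6% and 12.7% of all genes. A weighted fit to the rebuilt fragments, limma-voom, also passed 0 of 74 members and 0.0122% of all genes. Without control 2 the unadjusted threshold left 25 lower members, and without diabetic 2 also 25, each against 7.00% of all genes. Without control 3 there were 62 lower members with no overlap, against 22.7% of all genes. Under scaling every library to 1 common sum (TPM), where the median of all genes moved to 0.13, the member median was -0.17, which is -0.30 relative to all genes. In TPM 59 of 74 members were below 0. In that scaling 17 members were lower at an unadjusted p below 0.05 (4.23% of all genes) and 23 without overlap (5.60% of all genes), and the split over all genes was 692 lower and 3009 higher in place of 1757 and 1498.

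**Figure D1:**
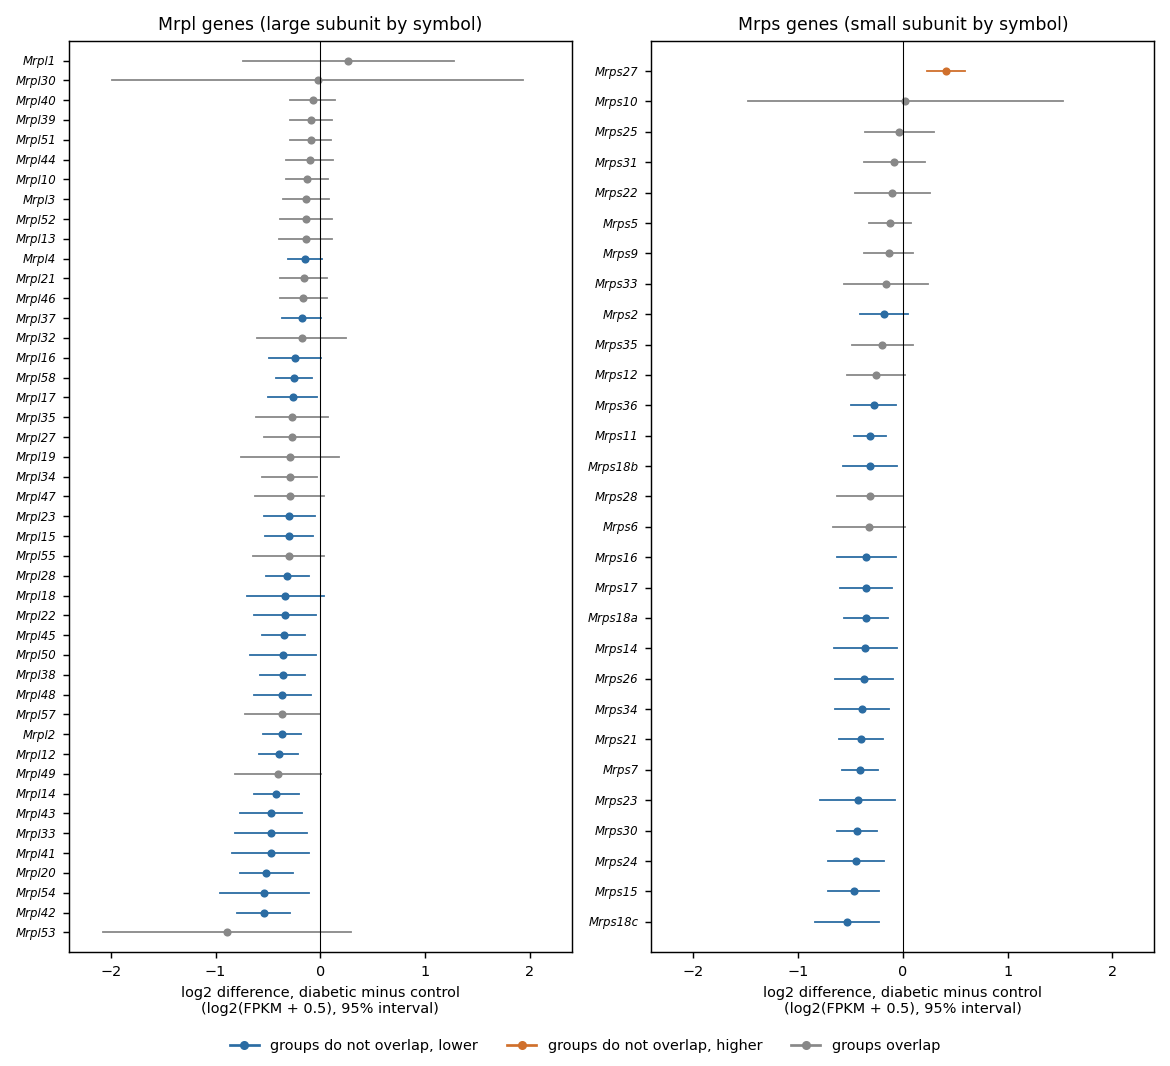
Difference of each tested mitochondrial ribosomal protein between diabetic and control retina, on the log2(FPKM + 0.5) scale, with its 95% interval (n = 3 libraries per group), Mrpl and Mrps in separate panels, ordered by difference and coloured by whether the groups overlap. Of the 74 intervals 39 lie wholly below 0, 1 (Mrps27) lies wholly above 0 and 34 span 0.

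The libraries themselves were not equal within groups. Against the control mean, the median member deviation of the 3 controls was 0.01, 0.13 and -0.12, in the order of their numbers, and that of the 3 diabetic libraries was -0.23, -0.34 and -0.28. Control 2 was the highest of the 6 libraries for 57 of 74 members, and control 3 was the lowest control for 53. All 3 diabetic libraries lay below control 2 for 70 members, below control 1 for 62 and below control 3 for 45. The summed FPKM of the 76 members was 2460.4, 2754 and 2256 in the control libraries and 2065, 1937 and 1962 in the diabetic libraries, so the groups did not overlap. The sum over all tested genes did not overlap either, at 513852 to 551189 in controls against 466448 to 499131 in diabetic libraries. Members took 0.255%, 0.273% and 0.235% of all fragments in the controls and 0.226%, 0.214% and 0.207% in the diabetic libraries. The median coefficient of variation of a member was 10.7% among controls and 6.70% among diabetic libraries, each over 3 libraries.

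**Figure D2:**
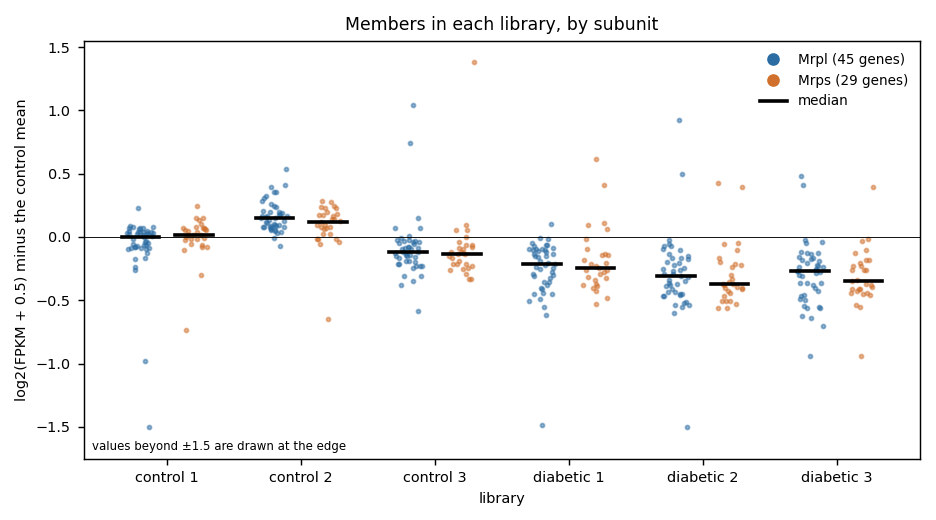
Deviation of each tested member from its control mean, log2(FPKM + 0.5), in each of the 6 libraries, with Mrpl and Mrps genes apart, a bar at each median and values beyond 1.5 either way drawn at the edge. The member medians of the diabetic libraries, -0.23, -0.34 and -0.28, lie below the lowest control median of -0.12, and control 2 lies above the other controls at 0.13.

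The large and the small subunit had close median differences. The median difference was -0.29 for the 45 Mrpl genes, of which 44 were below 0, and -0.32 for the 29 Mrps genes, of which 27 were below 0. In Mrpl 22 genes were lower at an unadjusted p below 0.05 and 23 did not overlap, and in Mrps 17 and 17 were lower and 1 and 1 higher. Over all genes, 10.7% were lower and 9.15% higher at that p, and 13.6% and 12.7% did not overlap. The large-minus-small gap of the medians was 0.02, and by library it was -0.01, 0.03 and 0.01 in the controls and 0.03, 0.06 and 0.08 in the diabetic libraries. Its sign turned without control 1, at -0.01, so no order of the subunits is read from it. Summed FPKM was 1637, 1859 and 1491 against 1345, 1279 and 1303 for Mrpl, and 824, 894 and 765 against 720.0, 658 and 659 for Mrps. Symbols do not always give the place of a protein: Mrps18a and Mrps30 sit in the large subunit, and Mrps36 is a component of the 2-oxoglutarate dehydrogenase complex. With these moved or left out, the medians were -0.30 over 47 large and -0.32 over 26 small subunit genes. The 29 members on a list of mitochondria-specific proteins had a median of -0.35 and the 44 other ribosomal members -0.30. These others mostly have bacterial relatives, but the class holds every unlisted member, Mrpl55 among them, so the split is approximate. By library, the gap of listed minus other members was 0.03, 0.01 and -0.01 in the controls. In the diabetic libraries it was 0.03, 0.07 and 0.06. The diabetic gaps have the other sign, so no order of these classes is read.

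Member levels spanned from below 1 to above 100 FPKM, with a median of 24.1 FPKM (25.3 for Mrpl, 22.1 for Mrps) against 8.80 for all tested genes. At or above 10 FPKM were 67 members, 7 lay between 1 and 10 and 2 below 1. Mrpl33, a small protein of the bacterial L33 family, was the highest at a mean of 140.3 FPKM, 1.79 times the next, Mrpl54 at 78.5. Mrpl33 measured 165, 197 and 131 FPKM in the controls and 122, 118 and 109.9 in the diabetic libraries, a difference of -0.47 (SE 0.15, adjusted p 0.170 by limma). Every diabetic library lay below every control library, but the gene's length of 236 nt is shorter than the fragments selected for the libraries, where a per-length level is least certain. Mrpl28 followed at 75.7 FPKM and Mrpl20 at 73.8.

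The 2 untested members were at the edge of detection. Mrpl36, of the bacterial L36 family, had 1 to 4 fragments per library (0.798, 0.563 and 0.265 FPKM in controls, 0.357, 0.602 and 0.180 in diabetic libraries). Mrps21l, a gene annotated as like Mrps21, had 1 fragment in control 3, diabetic 1 and diabetic 2 and was at 0 in the other libraries. Poly-A selection and gene lengths of 294 and 267 nt apply to both, and whether they bear on the low values was not tested.

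Among proteins of the large subunit, the lowest p-values belonged to members of several sites. Mrpl12, the stalk protein that recruits translation factors and also binds the mitochondrial RNA polymerase, measured 26.4, 27.6 and 24.3 FPKM in the controls and 20.0, 19.1 and 19.9 in the diabetic libraries. Its difference was -0.40 (SE 0.08, adjusted p 0.128 by limma), and the groups were well apart. Mrpl42, a mitochondria-specific protein, measured 44.3, 48.6 and 37.8 FPKM against 31.6, 29.7 and 27.9, a difference of -0.54 (SE 0.11, adjusted p 0.128). The lowest control of Mrpl42 exceeded the highest diabetic library. Mrpl20, which binds the ribosomal RNA early in assembly in bacteria, measured 91.1, 96.8 and 73.6 FPKM against 60.8, 59.0 and 61.6, a difference of -0.52 (SE 0.11, adjusted p 0.129). In Mrpl20 control 3 stood lower than the other controls, and the 3 diabetic libraries lay close together.

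Mrpl2, whose bacterial relative lies next to the peptidyl transferase centre, measured 34.9, 38.2 and 39.3 FPKM in controls and 30.3, 28.5 and 28.1 in diabetic libraries (difference -0.37). Mrpl14, at the face that meets the small subunit, measured 57.6, 67.3 and 59.6 against 47.9, 42.1 and 47.5 (difference -0.42). Neither gene's groups overlapped, and in Mrpl2 control 3 was the highest library, unlike most members. Mrpl45, which holds the ribosome to the inner membrane beside the exit tunnel, measured 19.2, 19.6 and 18.4 against 16.0, 14.9 and 13.7 (difference -0.35).

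By site, every tested gene had a difference below 0 in each group of large subunit proteins. The 4 tested stalk genes had a median of -0.47, and 2 did not overlap between groups. One of them, Mrpl53, had 1 to 14 fragments per library and no direction is read for it, and the median of the other 3 was -0.40. Of the genes without overlap Mrpl54 measured 90.5, 121 and 70.3 FPKM in controls and 59.6, 63.6 and 66.3 in diabetic libraries (difference -0.53), and its control libraries were spread widely. The 7 tested exit tunnel genes had a median of -0.29 and 4 did not overlap, among them Mrpl23 at 33.4, 34.8 and 29.9 against 27.2, 23.5 and 28.8 FPKM (difference -0.30). The 8 central protuberance genes, in the region that in mitochondria holds a structural tRNA in place of a bacterial ribosomal RNA, had a median of -0.29 and 4 did not overlap. Mrpl38, a mitochondria-specific protein there, measured 49.1, 49.6 and 57.9 against 38.1, 40.3 and 43.0 FPKM (difference -0.36). Mrpl58, a peptidyl-tRNA hydrolase that became a ribosomal protein, measured 45.9, 46.2 and 41.7 against 38.1, 36.2 and 38.0 (difference -0.25). None of these genes passed the test. The share of all tested genes that were lower without overlap was 13.6%.

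Among small subunit genes Mrps7 had the lowest p of all members. Mrps7, a protein of the subunit's head, measured 28.7, 28.5 and 26.7 FPKM in the controls and 21.3, 21.1 and 20.3 in the diabetic libraries, that is 28.0 ± 1.11 against 20.9 ± 0.535 (SD, n = 3). Its difference was -0.41 (SE 0.07, adjusted p 0.127 by limma), and both groups were tight and apart. It overlaps Gga3 on the opposite strand, at a mean of 21.5 FPKM, and reads of both genes could be shared where strand was not used. Mrps11, on the platform of the subunit, measured 41.0, 40.2 and 40.7 FPKM against 33.7, 32.2 and 32.0, a difference of -0.31 (SE 0.07, adjusted p 0.128). Its libraries lay close together within each group, and the groups did not overlap. Mrps21, of the bacterial S21 family, measured 54.8, 60.2 and 50.4 against 43.8, 39.6 and 41.3 FPKM (difference -0.40), and Mrps15, of the bacterial S15 family, 18.4, 18.7 and 15.5 against 13.1, 11.7 and 12.8 (difference -0.47).

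Mrps30, a mitochondria-specific protein that despite its symbol lies in the large subunit, measured 40.2, 40.7 and 35.8 FPKM in controls and 29.6, 27.2 and 29.1 in diabetic libraries. The difference was -0.43 (SE 0.08, adjusted p 0.128 by limma) and the groups did not overlap. The 6 genes of the decoding site and messenger path had a median of -0.23, and each was below 0. Without overlap were 2 of them, against 13.6% of all genes lower without overlap. Mrps24, at the entry of the messenger channel, measured 37.8, 47.9 and 37.0 against 31.2, 27.9 and 29.7 FPKM (difference -0.45). Mrps28, of the bacterial S1 family, measured 21.3, 23.0 and 17.3 against 18.5, 15.3 and 15.3 (difference -0.32), and here diabetic 1 lay above control 3. Mrps2, with 4125 nt the longest member, measured 9.09, 9.54 and 10.3 against 8.28, 8.19 and 8.97 (difference -0.18), without overlap. Mrps36, of the dehydrogenase complex, measured 12.8, 14.7 and 13.1 against 10.8, 10.9 and 11.5 FPKM (difference -0.28), a value among those of the ribosomal members.

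Mammals carry 3 genes of the bacterial S18 family, and all 3 were lower without overlap, against 13.6% of all genes. Mrps18c measured 29.6, 37.3 and 26.4 FPKM in controls and 21.9, 20.7 and 20.8 in diabetic libraries, a difference of -0.53 (adjusted p 0.137 by limma). Mrps18a measured 34.7, 36.4 and 32.2 against 25.5, 25.8 and 29.3, a difference of -0.35 (adjusted p 0.138), and overlaps Rsph9, at 2.88 FPKM, on the opposite strand. Mrps18b measured 14.0, 13.7 and 14.7 against 12.4, 9.79 and 11.7, a difference of -0.31 (adjusted p 0.191). Control 2 was the highest library for Mrps18c and Mrps18a but the lowest control for Mrps18b.

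Mrps27 was the exception among well-measured members. It encodes a pentatricopeptide repeat protein of the small subunit and spans bases 29598344 to 29666724 of chromosome 2, plus strand, in the table's coordinates. The labels name no genome build for them. Control libraries measured 17.4, 16.2 and 15.7 FPKM and diabetic libraries 21.9, 22.2 and 21.8, that is 16.4 ± 0.868 against 21.9 ± 0.196 (SD, n = 3), from 441 to 940 fragments per library. The difference was 0.41 with a 95% interval of 0.23 to 0.59 (SE 0.08, adjusted p 0.128 by limma), so it did not pass. All 3 diabetic libraries lay above all controls, and no other gene of at least 1 FPKM overlaps it. Across the alternatives the difference stayed between 0.36 and 0.55. Its length of 2252 nt is above the member median, and the part of length in its value was not tested.

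**Figure D3:**
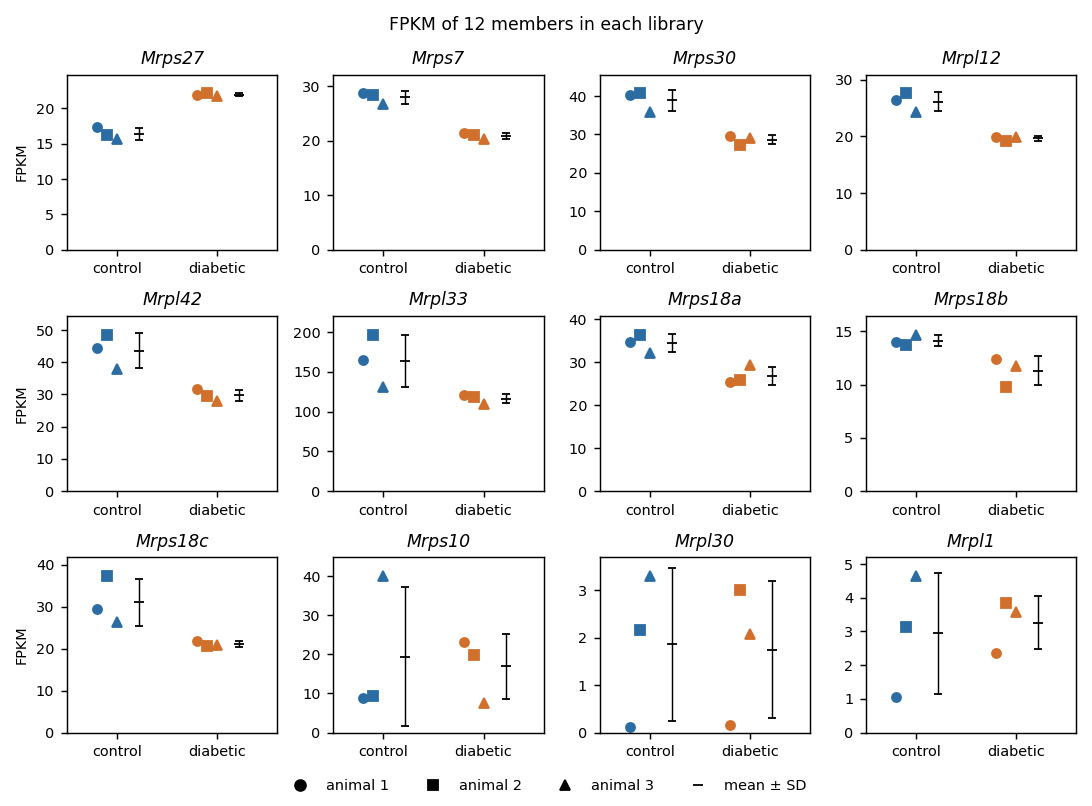
FPKM of 12 members in each library, control (blue) and diabetic (orange), with the mean and SD of 3 libraries beside them and axes from 0. Mrps27 is higher in every diabetic library, 8 members from Mrps7 to Mrps18c are lower in every diabetic library, and Mrps10, Mrpl30 and Mrpl1 vary more within groups than between them.

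Promoters were examined because the members were lower together. RefSeq promoters on the build GRCr8, from 250 bases before to 50 after the annotated start, matched 60 of the 76 members by symbol. Motifs were searched as exact letters on both strands: CCGGAAG, bound by ETS factors such as GABP, AAGATGGC, bound by YY1, and GCGCATGC, the core of the NRF1 motif. These factors are known activators of nuclear genes for mitochondria. The ETS letters occurred in 21 of 60 member promoters (35.0%) against 9.22% of all 27457 promoters and 17.0% of 10003 promoters of tested coding genes. The YY1 letters occurred in 15 (25.0%) against 3.44% and 5.52%, and the NRF1 core in 5 (8.33%) against 2.66% and 5.05%. At least 1 of the 3 occurred in 33 members (55.0%) against 14.1% and 24.9%. In 11 of the 15 members the first YY1 match lay after the start, on the gene's own strand, at bases 1 to 31 of the transcript.

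The windows around the YY1 letters are shown for 5 members that were lower in every diabetic library and for Mrps27, which was higher, so that the shared letters can be compared. Each has 30 bases, 5′ to 3′ on the gene's strand, with AAGATGGC in capitals.
Mrps7: tgatagcggccAAGATGGCtgcccccgcac
Mrps30: cgcggaggacaAAGATGGCggctgccaggt
Mrpl42: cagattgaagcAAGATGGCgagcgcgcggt
Mrps18a: ggtgtgttcccAAGATGGCggccctcaggg
Mrps18b: ggatgtgcgacAAGATGGCtgcctccttgc
Mrps27: tggtacgctccAAGATGGCggcccccatgg

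In GRCr8 these windows lie at chr10:101342637-101342666 (Mrps7, plus strand), chr2:52195868-52195897 (Mrps30, minus strand), chr7:32028485-32028514 (Mrpl42, minus strand), chr9:22367362-22367391 (Mrps18a, minus strand), chr20:2843023-2843052 (Mrps18b, plus strand) and chr2:32474222-32474251 (Mrps27, plus strand). The motif starts at transcript base 7 in Mrps7, 19 in Mrps30, 20 in Mrpl42, 1 in Mrps18a, 29 in Mrps18b and 30 in Mrps27. The gene that was higher and the genes that were lower carry the same letters, all after the start. The 250 bases before the start are shown for Mrps27 and Mrps18b, as a higher and a lower member of the small subunit list with the YY1 letters, with capitals for ETS letters (CTTCCGG on this strand) and for the NRF1 core, which in Mrps18b occurs on both strands with overlapping letters.
Mrps27: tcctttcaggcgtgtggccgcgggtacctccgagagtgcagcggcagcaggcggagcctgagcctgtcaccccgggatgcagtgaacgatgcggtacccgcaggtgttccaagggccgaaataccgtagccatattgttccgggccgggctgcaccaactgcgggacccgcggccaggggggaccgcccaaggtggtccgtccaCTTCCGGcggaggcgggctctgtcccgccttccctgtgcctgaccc
Mrps18b: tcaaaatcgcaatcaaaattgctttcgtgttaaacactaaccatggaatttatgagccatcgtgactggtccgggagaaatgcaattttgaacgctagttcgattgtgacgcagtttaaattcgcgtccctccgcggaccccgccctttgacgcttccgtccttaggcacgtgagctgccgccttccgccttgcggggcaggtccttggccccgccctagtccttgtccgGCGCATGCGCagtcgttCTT

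They lie at chr2:32473954-32474203 and chr20:2842756-2843005 of GRCr8, both on the plus strand, and the last ETS letters of Mrps18b run on past the start. Mrps27 holds ETS letters on the opposite strand and no NRF1 core, and Mrps18b holds both motifs. Members with and without a motif had close medians. The medians were -0.31 with and -0.31 without ETS letters, -0.34 with and -0.30 without YY1 letters, and -0.27 with and -0.32 without the NRF1 core. A match in these windows describes letters and shows no binding.

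Mrpl1 and Mrps10, the other members above 0, varied over 4-fold within a group, as did Mrpl30 and Mrpl53. Mrps10 had control values of 8.82, 9.41 and 40.0 FPKM and diabetic values of 23.3, 20.0 and 7.61, on 140 to 632 fragments, a difference of 0.02 (95% interval -1.48 to 1.53). Its high and low libraries occur in both groups, and the sign turned without control 1, control 2, diabetic 1 or diabetic 2 and with equal library medians. Mrpl1 measured 1.06, 3.13 and 4.64 against 2.37, 3.83 and 3.58 FPKM, on 20 to 75 fragments, and its difference of 0.27 became -0.22 without control 1. Mrpl30 was near 0 in control 1 (0.120 FPKM, 6 fragments) and diabetic 1 (0.161 FPKM, 9 fragments) and measured 2.17, 3.30, 3.00 and 2.08 in the other libraries. It overlaps Mitd1, at 8.21 FPKM, on the opposite strand. The 2 low libraries of Mrpl30 share the replicate number 1 and belong to different groups. Its difference of -0.03 changed sign in TPM, with a pseudocount of 0.1, with voom and without 3 of the libraries in turn. Mrpl53 had 1 to 14 fragments, with 2.28, 2.53 and 1.08 against 2.04, 0.164 and 0.735 FPKM, and the lowest difference of any member at -0.89 (95% interval -2.08 to 0.29). No direction is read for these 4 genes.

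Member genes were short, and most bins of short genes had a median below 0. The median length of the tested members was 1129.5 nt (range 236 to 4125) against 2100 nt for all tested genes. Over all tested genes the median difference was 0.01 in the shortest bin, at 42 to 420 nt, which holds 2 members. It was -0.15 at 421 to 952 nt, -0.12 at 953 to 1377 nt and -0.10 at 1378 to 1733 nt, and it reached 0.17 at 5083 nt and above. In the same length bins the members had medians of -0.33 (30 genes, 30 below 0), -0.30 (14 genes) and -0.17 (12 genes), and 9 members at 2100 to 2539 nt had -0.19 against -0.02 for all genes of that length. Members shorter than 1129.5 nt had a median of -0.34 and longer ones -0.24, and all tested genes had -0.10 and 0.02 on either side of that length. Spearman's rank correlation between length and difference was 0.40 over the 74 members and 0.25 over all tested genes, a description across genes of the same 6 libraries.

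All Mrpl genes had a median length of 1034 nt and Mrps genes of 1235 nt, so the subunits were also set apart by length. Shorter Mrpl genes had a median of -0.32 (24 genes) and longer ones -0.24 (21 genes), and the same values in Mrps were -0.35 (13 genes) and -0.24 (16 genes). The gene length trend also moved among controls, since genes shorter than 1129.5 nt deviated by 0.00, 0.07 and -0.06 in the control libraries and by -0.10, -0.11 and -0.11 in the diabetic libraries. With that trend removed in each library by a smooth fit, the member median was -0.20, which was -0.19 relative to all genes, 68 of 74 members were below 0 and 33 were lower without overlap, against 12.9% of all genes. The part of gene length in the remaining difference was not tested further.

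**Figure D4:**
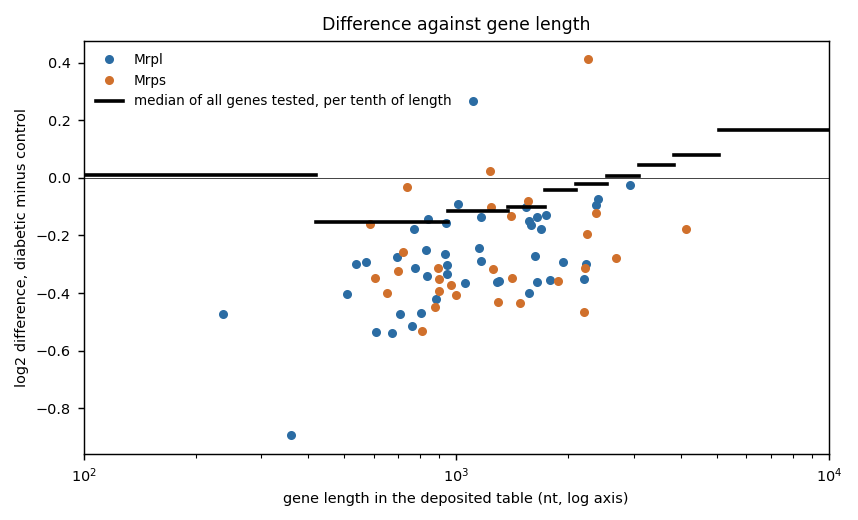
Difference between diabetic and control retina, log2(FPKM + 0.5), against gene length on a log axis, for the tested members by subunit, with bars at the median of all tested genes in 10 bins of length, of which the outer ones run past the axis. The members lie below the median of genes of like length in most bins, at -0.33 against -0.15 between 421 and 952 nt, and the medians of all genes are higher in the longer bins.

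Ribosomal proteins that the symbol rule does not take were below 0 as well. Of 4 tested mitochondrial ribosomal proteins with other symbols all were below 0, with a median of -0.34. At an unadjusted p below 0.05, 2 were lower, against 10.7% of all genes. Gadd45gip1, a large subunit protein, measured 40.8, 50.4 and 43.2 FPKM in controls and 29.1, 31.8 and 30.0 in diabetic libraries, a difference of -0.55 (SE 0.10, adjusted p 0.127 by limma). Chchd1, a small subunit protein, measured 73.3, 96.8 and 59.8 against 55.0, 45.4 and 50.5, a difference of -0.58 (adjusted p 0.163). Neither overlapped between groups. Dap3 (-0.06) and Ptcd3 (-0.12) did overlap. The table writes mrpl9, mrpl11 and mrpl24 in lower case, which puts them outside the rule. Their differences were -0.33, -0.27 and -0.07 with no overlap in any of the 3, against 13.6% of all genes lower without overlap.

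Factors that build the mitochondrial ribosome had a smaller median difference, which was not tested against that of the members. Of 26 tested assembly genes 21 were below 0 (median -0.17), 7 were lower and 1 was higher at an unadjusted p below 0.05, and 9 lower and 1 higher did not overlap, against 10.7%, 9.15%, 13.6% and 12.7% of all genes in the same order. Mpv17l2, an inner membrane protein needed for assembly, measured 16.2, 16.8 and 16.8 against 11.7, 10.5 and 15.0 FPKM (difference -0.42), and Rcc1l, a factor of large subunit assembly, 10.7, 10.8 and 9.70 against 8.30, 8.91 and 7.99 (difference -0.29). Of 15 tested translation factors and message regulators 9 were below 0, with a median of -0.05. Slirp, which with Lrpprc stabilises mitochondrial messages, measured 5.62, 6.90 and 5.54 against 4.25, 4.23 and 4.19 FPKM (difference -0.46, adjusted p 0.144 by limma), whereas Lrpprc itself differed by 0.05. Gfm2, a ribosome recycling factor, measured 6.45, 7.27 and 7.79 against 11.0, 7.42 and 9.21 (difference 0.33), with overlap. The assembly median was -0.03 and the factor median 0.08 in TPM. The assembly median was -0.10 under quantile normalization and -0.09 with the gene length trend removed, and the factor median turned to 0.02 without control 2 and 0.03 without diabetic 2. Length moves with these values too, since the assembly genes had a median of 1722 nt and the factors 2346 nt, and its part in them was not tested.

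The messages that this ribosome translates lay on both sides of 0. Of the 13 mitochondrially encoded genes 5 were below and 8 above 0, with a median of 0.07. At an unadjusted p below 0.05 by limma 0 differed, against 10.7% of all genes lower and 9.15% higher. Without overlap 2 were lower and 0 higher, against 13.6% and 12.7% of all genes. Mt-nd3 measured 1542, 1541 and 1239 FPKM in controls and 1219.9, 1165 and 1191 in diabetic libraries (difference -0.27), without overlap. Mt-nd4l measured 859.9, 1305 and 1558 against 1422, 1833 and 1782 (difference 0.47), with overlap. Both encode subunits of respiratory complex I. The median of the 13 genes was 0.20 in TPM, 0.22 under quantile normalization, 0.18 with the gene length trend removed and -0.03 without diabetic 3. By comparison, 78 of 83 tested cytosolic ribosomal protein genes were below 0, with a median of -0.37 and library medians of -0.01, 0.26 and -0.23 in the controls and -0.31, -0.43 and -0.34 in the diabetic libraries. The cytosolic median was -0.18 under quantile normalization and -0.23 in TPM, where that of all genes was 0.13. Their median length was 613 nt, and single cytosolic genes are uncertain because near-identical copies can share reads.

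Marker lists of retinal and neighbouring cell types lay on both sides of 0. Of 6 tested rod photoreceptor markers 5 were below 0, and their summed level was 9544 to 10320.5 FPKM in controls and 7325 to 8268 in diabetic libraries, without overlap. Of 5 Müller glia markers 3 were below 0, with sums of 1317 to 1509.6 against 885 to 1267 FPKM. In the cone list 4 of 6 were below 0 (median -0.07), with sums of 607 to 673 against 523 to 588 FPKM. Neither sum overlapped between groups. The summed FPKM of all tested genes did not overlap either, at 513852 to 551189 in controls against 466448 to 499131 in diabetic libraries. Above 0 among the cone markers, Opn1sw measured 15.5, 17.3 and 14.0 against 30.2, 20.0 and 34.5 FPKM (difference 0.81), without overlap. Opn1mw, the other cone marker above 0, differed by 0.26. Of 6 microglia markers 5 were below 0, with sums of 16.6 to 26.6 against 12.3 to 17.3 FPKM, and without control 1 the count was 3. In contrast, 4 of 5 amacrine markers were above 0 (median 0.12), 2 of them at an unadjusted p below 0.05, against 9.15% of all genes higher. Their sums were 255 to 281 against 272 to 309 FPKM. With 1 library left out, the amacrine median ran from 0.01 (without control 3) to 0.23 (without diabetic 3). Of 6 bipolar cell markers 5 were also above 0 (median 0.07), and without control 2 their median was -0.04. The bipolar sums overlapped at 389 to 468 against 389 to 435 FPKM. Ganglion cell and pigment epithelium markers were below 0 in 3 of 6 each, endothelial markers in 1 of 2, myelin markers in 1 of 3 and cornea markers in 0 of 3. The cornea count became 2 of 3 without control 1, control 3 or diabetic 1. Counts of the other lists in this group also moved with 1 library left out. All 8 lens markers were below 0, with a median of -0.99, and control 3 stood apart, with sums of 33.4, 58.9 and 393.8 FPKM in the controls and 24.6, 63.4 and 44.5 in the diabetic libraries. Without control 3 the lens median was -0.15 and 5 of 8 were below 0. Rod markers such as Gnat1, the transducin alpha subunit of rods, place the tissue as retina, and none of the 4 red cell markers reached the level for testing. Rods carry many of the retina's mitochondria, and the part of cell makeup in the ribosomal protein values was not tested.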

How the data were processed

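Retinal poly-A RNA of 6 rats (3 control, 3 diabetic by the treatment in their labels) was sequenced as read pairs and the labels' protocols mention no strand marking. The submitters' processing notes name HISAT2 2.0.5 as aligner. How fragments were counted, on which build and annotation, is not given in the sources consulted. Per the file headers, the table deposited by the authors holds FPKM of every library beside each gene's length, position and biotype.

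FPKM times gene length came in steps that gave whole fragments within 0.05 for 100% of values. The totals were 12417686 to 19115426 per library, and the denominators implied by the steps were 0.974 to 1.04 times these sums. No 2 libraries of the same group agreed within sampling noise, and libraries of different groups were not compared in this way. Floors cover counting error only. Animals were weighed separately, and p-values rest on the spread between them.

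Genes averaging at least 0.5 FPKM entered limma 3.58.1 (R 4.3.3) as log2(FPKM + 0.5) (group as the only term, eBayes with trend, two-sided, Benjamini-Hochberg threshold 0.05). FPKM were used as deposited. Alternatives were other pseudocounts (0.1, 1), filters and scalings, removal of a length trend by lowess, other eBayes settings, limma-voom on rebuilt fragments with trimmed-mean (TMM) scaling, coding genes alone, a replicate term, subunits by structure and leaving out each library. Chosen after seeing the data were adding lower-case symbols and leaving out members over 4-fold within a group or overlapping another gene of at least 1 FPKM, the stalk without Mrpl53, and the marker lists without each library. On simulated data for diabetic against control (16363 genes) limma recovered 4.82% of 1.5-fold, 70.7% of 2-fold and 94.9% of 4-fold changes, and 7 of 108 calls were unchanged genes.

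The members and gene lists were chosen with earlier results of these data known. Named genes were, per subunit, up to 6 lower and 4 higher of smallest p, then the 3 highest, lowest, shortest and longest, the S18 family, Mrps30 and Mrps36, and the 2 of smallest p per site and companion list. Lrpprc, Dap3, Ptcd3, the lower-case genes and those in the closing section were named after their values were seen. Of the members, 9 overlap another gene of at least 1 FPKM, each on the opposite strand. Promoters are RefSeq's (GRCr8), matched by symbol, with the first start used for Mrps21 and Mrpl14. The m6A peaks of the series were not analysed here, and 1 rod marker is not reported here. Plots used matplotlib 3.10.9.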

Additional observations from a re-analysis of the deposited data

How the results depend on the processing

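In TPM 17 members were lower at an unadjusted p below 0.05 (4.23% of all genes), 23 were lower without overlap (5.60%), and the member median was -0.17. There, 59 of 74 members were below 0. With the gene length trend removed, the member median relative to all genes was -0.19 and the large-minus-small gap 0.047. Leaving out 1 library at a time gave 25 to 47 members lower at an unadjusted p below 0.05 (25 without control 2 and without diabetic 2) against 7.00% to 13.0% of all genes, 40 to 62 without overlap (62 without control 3) against 16.7% to 22.7%, a large-minus-small gap of -0.012 (without control 1) to 0.044 and member medians of -0.36 to -0.23. With the replicate block, 0 members passed, 37 were lower at an unadjusted p below 0.05 (9.15% of all genes) and the median was -0.30. Same-numbered libraries deviated from their group means with correlations of -0.05, -0.08 and 0.00 over all genes and 0.59, -0.02 and -0.17 over the members. Pairs of unlike number ran from -0.68 to 0.63 over the members. With 3 libraries a group, these values cannot settle whether equal numbers share more than a label. Under these 20 fits 0 members passed, and 57 members (35 Mrpl, 22 Mrps) were below 0 in each. Over all genes voom called 2, and leaving out control 2, diabetic 1 or diabetic 2 called 1, 4 and 1, none of them members. Mrpl30 turned to 0.090 in TPM, 0.017 with a pseudocount of 0.1, 0.24 with voom, and spanned -0.81 to 0.70 with 1 library left out. Mrps10 turned to -0.022 with equal library medians and spanned -0.34 to 0.72 with 1 library left out. Mrpl1 spanned -0.22 to 0.64 in the same way. The cause was not tested for any of these.

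In simulated data with 3 libraries a group, 4.82% of the 83 genes changed 1.5-fold passed over 16363 tests. The simulation changed few genes, used a fixed spread and held no log2 differences near 0.30. It therefore does not say why no member passed. Members under 100 fragments per library carry wide intervals.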

Other observations

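Among members with at least 100 fragments in each library and no more than 4-fold variation within a group, the 5 with differences nearest 0 were picked after their values were seen. Mrps25 measured 48.1, 47.8 and 35.4 FPKM in controls and 46.8, 37.8 and 42.9 in diabetic libraries, a difference of -0.03 (95% interval -0.37 to 0.30). Mrpl40 measured 10.3, 11.3 and 10.5 against 9.61, 10.5 and 10.3 FPKM, a difference of -0.07 (95% interval -0.29 to 0.14). Mrps31 measured 21.4, 22.4 and 16.5 against 19.7, 18.5 and 18.3 FPKM, a difference of -0.08 (95% interval -0.37 to 0.21). The groups of each of the 3 overlapped. Mrpl39 differed by -0.09 (95% interval -0.29 to 0.11) and Mrpl51 by -0.09 (95% interval -0.29 to 0.10), both with overlap. The intervals of Mrps25 and Mrps31 include the member median of -0.30, and those of Mrpl40, Mrpl39 and Mrpl51 end just above it.

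2 further coding genes are described in the table as relatives of mitochondrial ribosomal proteins without carrying an Mrpl or Mrps symbol. LOC100359687, described as L1-like, measured 6.96, 4.32 and 4.22 FPKM in controls and 3.04, 3.75 and 1.88 in diabetic libraries, a difference of -0.75 (adjusted p 0.199 by limma). Its groups did not overlap, whereas those of Mrpl1 did. Reads of such copies can be split between them by the counting, so neither value need stand for the protein's message alone. Sharing of reads between these 2 genes was not tested. RGD1560917, described as similar to L41, averaged 0.246 FPKM and was not tested.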
